A study of Mus musculus with 34 samples.

Results

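The genes described here encode the enzymes that cut and cross-link extracellular matrix in mouse liver, together with the inhibitors of those enzymes. They are the 55 symbols of the deposited expression table, out of 35976 in all, that name a matrix metalloproteinase (Mmp), a tissue inhibitor of metalloproteinases (Timp), a lysyl oxidase (Lox, Loxl), a secreted protease with thrombospondin repeats (Adamts) or one of the related proteins without protease activity (Adamtsl). Of these, 51 were above 0 in at least 1 library and 41 passed the filter for testing, at least 1 FPKM in 5 or more libraries, as did 19295 symbols overall. The deposited unit, FPKM, counts fragments per kilobase of transcript and is scaled by library size.

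The study measured total RNA in 34 livers, 1 library each, from C57BL/6 mice homozygous for both TetO-Cas9 and Rosa-rtTA, a Cas9 nuclease under tetracycline control. Every mouse, control or not, received an adeno-associated virus with a guide RNA and 3 months of Western diet. The guide was directed at Bcl6 (5 livers), Irs1 (5), Smyd2 (6), Srebf1 (5) or Tbx3 (7), and the control guides at GFP (sgGFP, 4) or LacZ (sgLacZ, 2), which the mouse genome lacks; the 6 control livers were pooled. The sources used here do not give the ages of the mice, the promoter driving the guide or the liver cells it reached. Nothing in the labels ties livers to litters or cages, so each is taken as 1 animal, and if any were not, the tests reflect sample spread alone, which may be technical.

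Extracellular matrix is built of collagens, laminins and proteoglycans that cells secrete, trim, cross-link and later degrade. Lysyl oxidases oxidise lysines so that collagen and elastin fibres become cross-linked, metalloproteinases and ADAMTS enzymes cut matrix proteins, and TIMPs bind and block those proteases. In injured liver, stellate cells, portal fibroblasts, macrophages and bile duct cells are known sources of these transcripts, and the balance of proteases and inhibitors is a textbook feature of fibrosis.

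Facts of the whole series bear on all the values. Low FPKM values moved in steps that imply 2110000 to 3130000 counted reads a library (median 2610000), an estimate from 5871 symbols with a single transcript. The estimate is approximate: at the fitted depths 58.5% to 64.8% of these low values lay within 0.1 read of a whole number. The mRNA of the targeted gene passed the test in none of the 5 comparisons (limma adjusted p from 0.0611 for Srebf1 to 0.98 for Bcl6), and the measurement is of RNA, not of the edited DNA. The range of each targeted gene overlapped that of the controls: Bcl6 was at 46.7 to 100.1 FPKM in its knockout livers and 27.1 to 104 in controls, Irs1 at 25.4 to 35.8 and 20.2 to 27.6, Smyd2 at 61.7 to 121 and 81.6 to 147, and Tbx3 at 80.1 to 249 and 45.9 to 147. The library labelled Srebf1 KO replicate 1 had Srebf1 at 1908 FPKM, inside the control range of 1095 to 2177, while the lowest liver of its group had 499. No 2 libraries were identical, with a highest pairwise Pearson correlation of 0.983 across genes. In bulk liver, fewer cells of a type and less RNA per cell cannot be told apart.

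Levels of the set ran from Adamts10, with a mean of 225 FPKM over the 34 livers, down to genes listed at 0 throughout. Besides Adamts10, a protease of fibrillin microfibrils, the highest means were those of Mmp14, a collagenase held in the cell membrane, at 87.8 FPKM, Mmp19 at 81.7, the inhibitor Timp3 at 80.4 and the collagen cross-linker Loxl2 at 52.0. Another 17 members, these 4 included, had means from 10 to 100 FPKM, 21 had means from 1 to 10, and 12 had means below 1 but above 0. The stromelysin Mmp10, the interstitial collagenases Mmp1a and Mmp1b, and the tooth enamel protease Mmp20 were listed at 0 in all 34 libraries. GENCODE M21 annotates Mmp1a as a polymorphic pseudogene. The deposited values of symbols with several transcripts appear to be sums over transcripts, so the order of levels between genes is approximate.

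**Figure D1:**
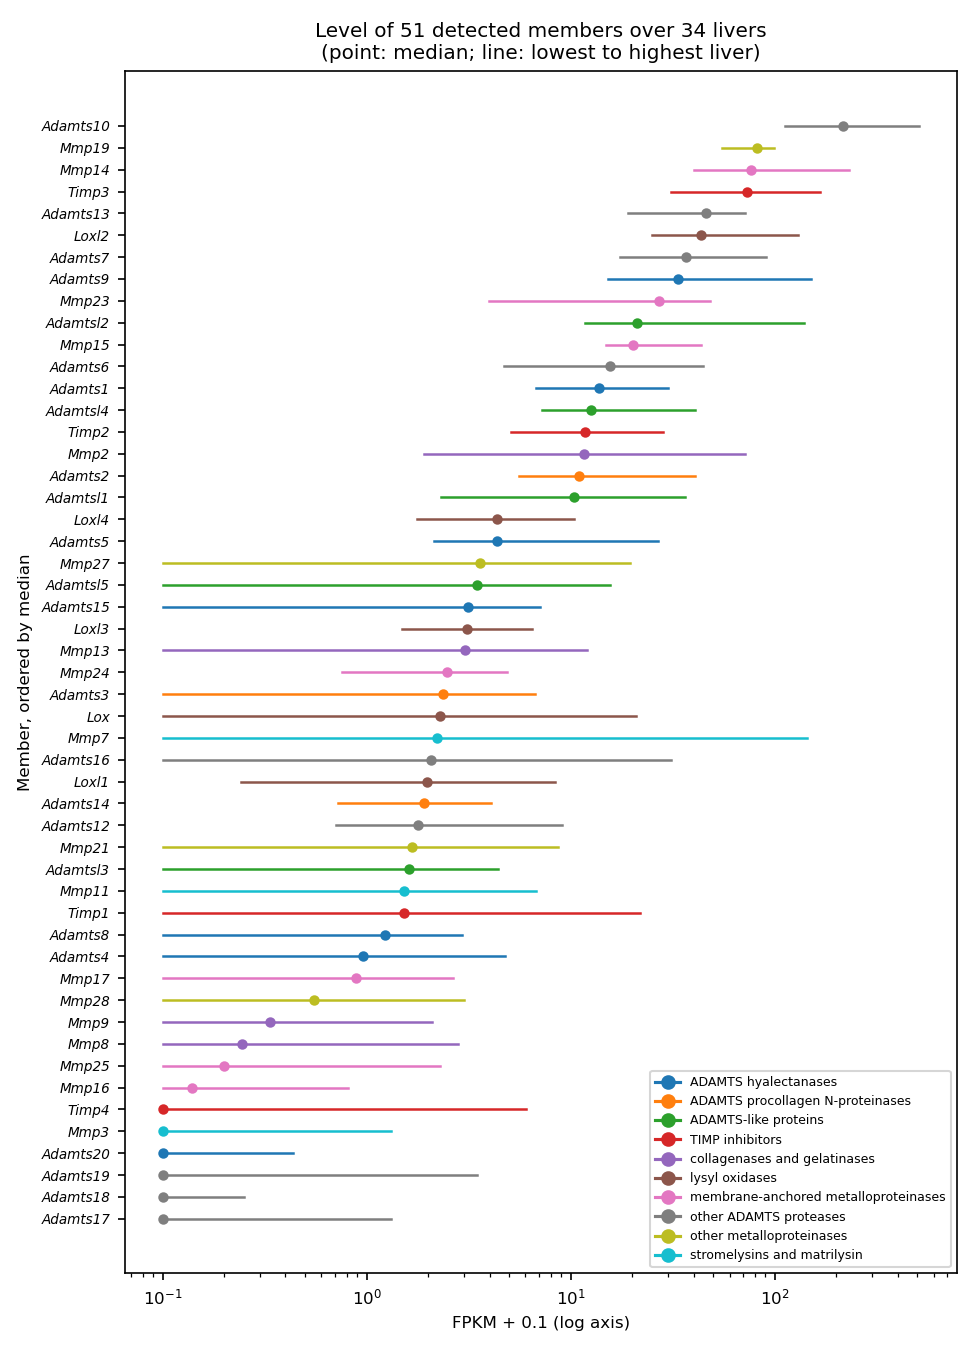
Level of the 51 members above 0 in at least 1 library, on a log axis of FPKM + 0.1; points are medians over 34 livers, lines run from the lowest to the highest liver, and colours give the functional class. Adamts10 lies above all others, and Mmp7 has the widest line of those with a median near 2 FPKM, from 0 to 144.

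Before the groups are compared, 4 livers need a word. On a list of 30 matrix substrates that holds no member (fibrillar and basement membrane collagens, laminins, fibulins and the like), the mean log2(FPKM + 1), centred on the mean of all livers, was 1.30 in sgGFP replicate 3, 1.11 in Smyd2 KO replicate 6, 1.01 in sgGFP replicate 1 and 0.927 in Tbx3 KO replicate 7. The next liver, Smyd2 KO replicate 5, stood at 0.553. The same 4 livers were the highest by the mean of the 41 tested members, at 1.16, 0.851, 0.873 and 0.702 in that order. Of the 41 members, 28 (68.3%) had their highest value of all libraries in one of these 4, against 30.7% of all tested symbols. In 8 members, picked out after their values were seen, all 4 lay above every one of the other 30: Loxl2, Mmp2, Timp2, Adamts2, Adamts5, Adamts9, Adamts12 and Adamtsl2. The share of all tested symbols with this pattern was not counted, and the 4 livers were picked for their high matrix substrates. For Loxl2 the 4 ran from 94.3 to 131 FPKM and the highest of the others was 82.5. For Adamts5, an aggrecan-cutting enzyme, they ran from 11 to 26.8 FPKM and the highest of the others was 6.08. Since 2 of the 4 are among 6 controls, counts and calls against control are also given below without both sgGFP livers, and without all 4, where stated, as settings chosen after seeing the data; leaving out the control livers that are highest lowers the control mean by construction.

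**Figure D2:**
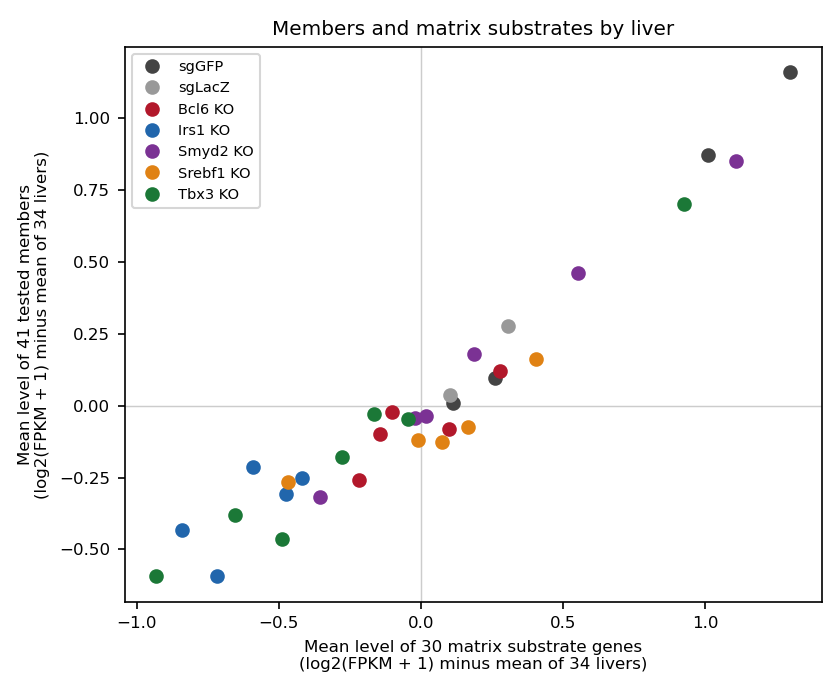
Each point is 1 liver: the mean level of the 41 tested members (vertical) against that of 30 matrix substrates (horizontal), both as log2(FPKM + 1) minus the mean of the 34 livers. The 4 livers at the upper right, 2 sgGFP, 1 Smyd2 KO and 1 Tbx3 KO, lie apart. The 5 Irs1 KO livers lie at the lower left, together with livers of the Tbx3, Srebf1, Smyd2 and Bcl6 KO groups. Tbx3 KO replicate 5 is the lowest of all on substrates (-0.931). Both means come from the same libraries.

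Each knockout group was set against the pooled controls to ask how loss of the targeted gene goes with matrix remodelling genes after the diet. In Irs1 KO livers 8 of 41 members (19.5%) passed the test, all lower, where 10.9% of all tested symbols passed and 7.61% were lower. They were Loxl2, Timp3, Mmp7, Mmp13, Mmp2, Mmp24, Adamts1 and Adamts12. In Bcl6 KO livers 1 member of 41, Loxl2, was lower, against 6.14% of all symbols called and 3.19% called lower. In Tbx3 KO livers 1 member, Mmp14, was lower, against 2.54% called and 1.37% called lower. In Srebf1 KO and Smyd2 KO livers no member passed limma's test, where 0.378% and 0% of all symbols did; at an unadjusted p below 0.05 there were 10 members in Srebf1 KO (13.1% of all symbols) and 1, Mmp14, in Smyd2 KO livers (7.17%). No member rose in any of the 5 comparisons, where 2.95% of all symbols were called higher in Bcl6 KO, 3.24% in Irs1 KO, 0% in Smyd2 KO, 0.197% in Srebf1 KO and 1.17% in Tbx3 KO livers. A log2 change below 0, without regard to a test, was found in 35 of 41 members in Bcl6 KO (59.5% of all symbols), 35 in Irs1 KO (62.3%), 30 in Smyd2 KO (50.4%), 35 in Srebf1 KO (57%) and 36 in Tbx3 KO livers (57.5%); the same 6 controls enter all 5 counts. These counts were 29, 35, 18, 29 and 31 in that order without both sgGFP livers, and 29, 35, 26, 29 and 33 without all 4. The first setting keeps Smyd2 KO replicate 6 and Tbx3 KO replicate 7. The shares of all symbols below 0 are not given for these settings.

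The shares of members called, near or under the background in Bcl6 and Tbx3 KO livers, by themselves say nothing particular of the set. At an unadjusted limma p below 0.05, 17 of 41 members were lower in Tbx3 KO livers (10.6% of all symbols) and 10 in Bcl6 KO livers (11.3%). Without both sgGFP livers these counts were 2 (7.19%) and 2 (9.21%). Without all 4 livers they were 14 (11.4%) and 3 (10.2%). The Irs1 KO share changed with the livers left out. Without both sgGFP livers none of the 41 members passed in the Irs1 KO comparison, where 3.35% of all symbols were still called lower, and 7 members were lower at an unadjusted p below 0.05 (13.3% of all symbols). Without all 4 livers 5 members passed (Adamts1, Adamts12, Loxl2, Mmp13 and Timp3), and 5.63% of all symbols were lower. The median log2 change of the members in Irs1 KO livers was -0.45 in both of these settings. The count was 5 without sgGFP replicate 1 alone (5.28% of all symbols lower) and 6 without sgGFP replicate 3 alone (5.13%). It was 4 without Irs1 KO replicate 1, where the share of all symbols is not given. In the Bcl6 and Tbx3 KO comparisons no member passed without both sgGFP livers, where 2.49% and 0.81% of all symbols were lower. The Tbx3 KO count also turned on a single knockout liver: without Tbx3 KO replicate 7, the one that stands apart, 12 members were lower and 1471 of 19209 symbols were called. Without all 4 livers no member was called, where 2.18% of all symbols were called lower. Over the 41 members the median log2 change was -0.73 in Irs1 KO, -0.56 in Tbx3 KO, -0.35 in Bcl6 KO, -0.34 in Srebf1 KO and -0.23 in Smyd2 KO livers, against -0.12, -0.06, -0.07, -0.05 and 0.00 over all tested symbols; these 5 medians share the same 6 controls. Without both sgGFP livers the medians became -0.45, -0.25, -0.09, -0.14 and 0.04, against -0.10, -0.03, -0.04, -0.03 and 0.03 over all symbols. Without all 4 livers they were -0.45, -0.38, -0.09, -0.14 and -0.07, against -0.10, -0.06, -0.04, -0.03 and 0.01.

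**Figure D3:**
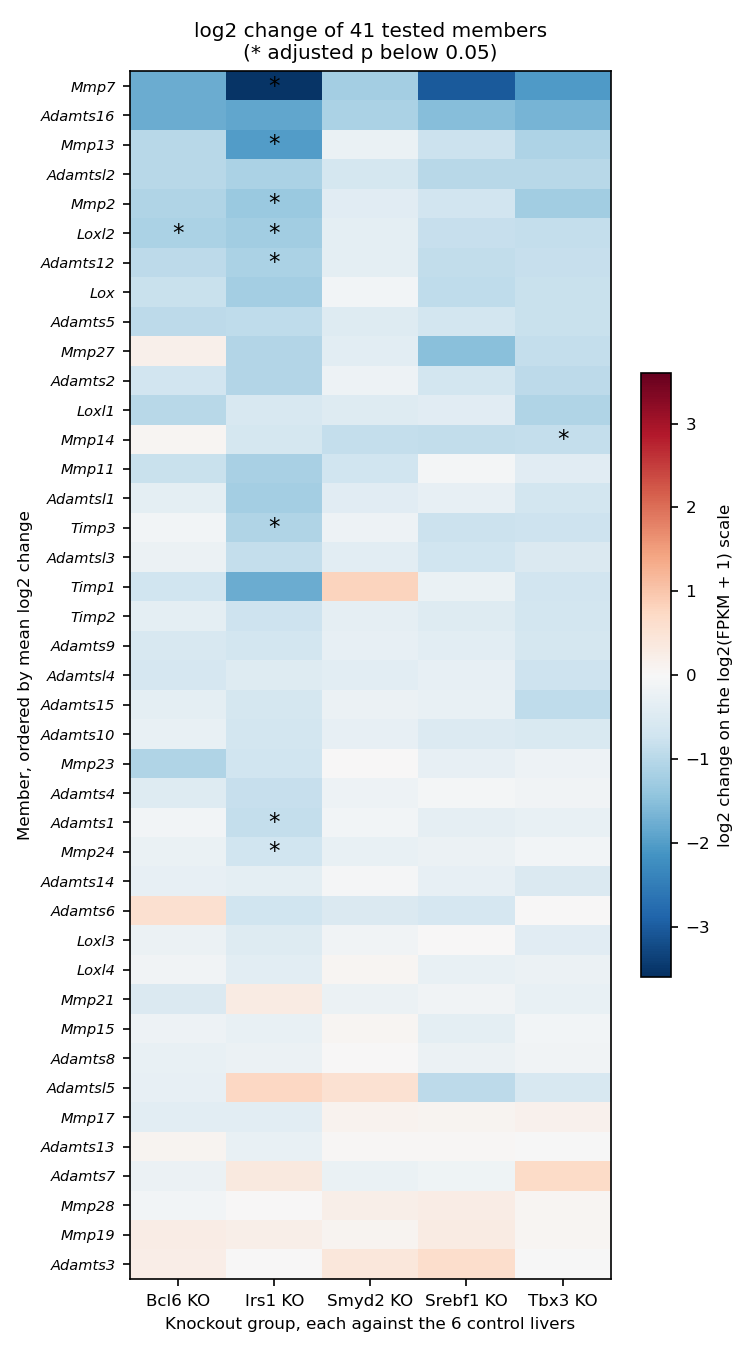
Colour gives the log2 change of each of the 41 tested members in each knockout group against the 6 controls, on the log2(FPKM + 1) scale, with blue lower and red higher; asterisks mark adjusted p below 0.05. Mmp7 is the lowest member in each of the 5 columns, 8 asterisks fall in the Irs1 KO column, and 1 each in the Bcl6 KO and Tbx3 KO columns.

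Among the lysyl oxidases, Loxl2 alone was called. Loxl2 lies on GRCm38 chromosome 14 at 69609068-69695834, plus strand. Its level was 114, 70.1, 131 and 47.6 FPKM in the 4 sgGFP livers and 69.2 and 60.0 in the sgLacZ livers. It was 34.1, 32.7, 33.4, 36.0 and 24.95 FPKM in the 5 Irs1 KO livers, each below the lowest control. The log2 change in Irs1 KO livers was -1.24 ± 0.29 (SE; limma adjusted p = 0.00642), and it was -0.91 without both sgGFP livers (adjusted p = 0.0787) and the same size without all 4 (adjusted p = 0.0197).

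In Bcl6 KO livers Loxl2 stood at 26.4, 32.9, 44.9, 40.6 and 31.3 FPKM, again below every control liver. The change was -1.13 ± 0.29 (SE; limma adjusted p = 0.0153). It was no longer past the threshold without Bcl6 KO replicate 1, and it was -0.80 without both sgGFP livers (adjusted p = 0.153) and without all 4 (adjusted p = 0.0494). The Tbx3 KO livers ranged from 25.2 to 94.3 FPKM with a median of 44.6, and overlapped the controls (log2 change -0.86, adjusted p = 0.0817). Values in Srebf1 KO livers were 32.8, 65.4, 34.2, 59.5 and 33.2 FPKM (log2 change -0.83, adjusted p = 0.213). The Smyd2 KO livers, from 40.8 to 112 FPKM, covered most of the control range (log2 change -0.34, adjusted p = 0.866).

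The other 4 lysyl oxidases were lower in level and none passed in any comparison. Lox, the founding enzyme of the family, averaged 3.47 FPKM with 3 libraries at 0, Loxl1 2.06, Loxl3 3.35 and Loxl4 4.45. All 5 had a log2 change below 0 in Bcl6, Irs1 and Tbx3 KO livers and 4 of 5 in Smyd2 and Srebf1 KO livers, where 50.4% to 62.3% of all tested symbols were below 0. Without a test, that count describes these libraries only.

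**Figure D4:**
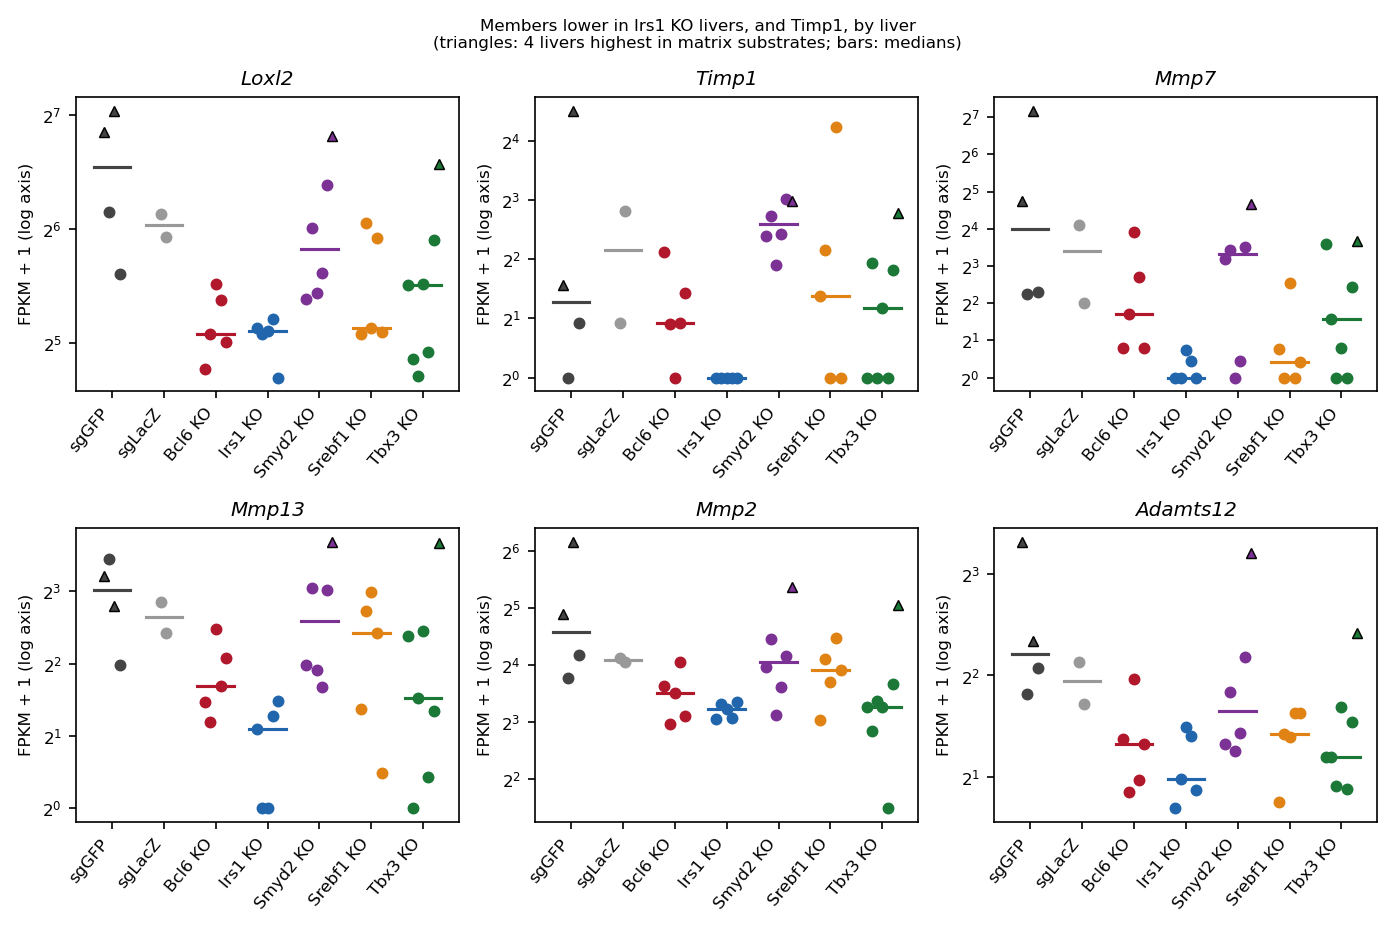
FPKM + 1 on a log axis for 6 members, 1 symbol per liver, by group; bars are medians, and triangles are the 4 livers highest in matrix substrates. Timp1 is at 0 FPKM in all 5 Irs1 KO livers, and the Irs1 KO values of Loxl2, Mmp7, Mmp13, Mmp2 and Adamts12 lie below every control value.

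Of the 4 inhibitors, Timp3 was called. Timp3, the TIMP that stays bound to matrix and also blocks ADAMTS enzymes, lies on chromosome 10 at 86300372-86349506. It stood at 153, 67.2, 166 and 123 FPKM in sgGFP and 94.7 and 62.1 in sgLacZ livers. The Irs1 KO livers had 40.03, 62.1, 30.9, 57.7 and 61.4 FPKM, with the highest of them level with the lowest control. Its log2 change was -1.08 ± 0.25 (SE; limma adjusted p = 0.00546), and -0.77 without both sgGFP livers (adjusted p = 0.0732) and without all 4 (adjusted p = 0.0324). In Srebf1 KO livers, at 47.7 to 70.6 FPKM, the change was -0.78 (adjusted p = 0.169), and in Tbx3 KO livers, at 39.4 to 120 FPKM, it was -0.74 (adjusted p = 0.077).

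Timp1, a secreted inhibitor widely used as a marker of fibrotic liver, lies on chromosome X at 20870166-20874735. It was listed at 0 in all 5 Irs1 KO livers. Controls held 1.96, 0, 21.8 and 0.887 FPKM in sgGFP and 0.888 and 6.03 in sgLacZ livers, so 1 control was at 0 as well and 1, sgGFP replicate 3, far above the others. The comparison of Irs1 KO with control missed the threshold (limma adjusted p = 0.0776), and the adjusted p was 0.336 without both sgGFP livers and 0.292 without all 4. All 6 Smyd2 KO livers carried Timp1, at 4.28, 5.65, 2.72, 4.40, 7.09 and 6.90 FPKM. Against controls their log2 change of 0.79 did not pass (adjusted p = 0.858). Set against each other, Irs1 KO and Smyd2 KO livers did not overlap and differed (limma adjusted p = 0.0246, where 4.26% of all symbols passed in that contrast). This is 1 of 10 contrasts between knockouts, each adjusted within itself, and it called 3 members of 41 (Mmp13, Timp1 and Timp3). In the limma F test among the 5 knockout groups Timp1 did not pass (adjusted p = 0.0602). The Timp1 call between Irs1 KO and Smyd2 KO livers was lost without Irs1 KO replicate 1 or Smyd2 KO replicate 5, with an adjusted p of at most 0.0575, and held without the 4 livers (adjusted p = 0.014). The Bcl6 KO livers had 3.37, 0.863, 0, 0.890 and 1.68 FPKM. Those labelled Srebf1 KO had 1.58, 3.48, 0, 17.9 and 0, and the Tbx3 KO livers had from 0 to 5.90, with 3 of 7 at 0.

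Timp2, which with Mmp14 takes part in activating Mmp2 at the cell surface, was at 12.2 to 27.6 FPKM in controls and 6.37 to 11.2 in Irs1 KO livers. The groups did not overlap, yet the change of -0.75 did not pass (limma adjusted p = 0.143). Timp2 is named here after its values were seen. Timp4 was at 0 in 25 of 34 libraries and was not tested.

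The secreted collagenases and gelatinases had 2 members abundant enough to test, and both were lower in Irs1 KO livers. Mmp13, the main interstitial collagenase of rodents, lies on chromosome 9 at 7272514-7283331. It was at 8.30, 9.90, 5.92 and 2.95 FPKM in sgGFP, 6.19 and 4.38 in sgLacZ, and 1.14, 0, 0, 1.41 and 1.79 FPKM in Irs1 KO livers. All 5 knockout livers were below the lowest control, and 1 FPKM of Mmp13 was worth about 6.96 reads at the median depth. Its log2 change was -2.01 ± 0.51 (SE; limma adjusted p = 0.0107), and -1.91 without both sgGFP livers (adjusted p = 0.0516) and without all 4 (adjusted p = 0.02), so its size moved little.

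Mmp2, the gelatinase that digests denatured and basement membrane collagen, is on chromosome 8 at 92827291-92853420. Controls had 28.7, 12.7, 71.0 and 17.1 FPKM in sgGFP and 16.6 and 15.6 in sgLacZ livers. The Irs1 KO livers were tightly grouped at 7.28, 9.03, 8.39, 7.48 and 9.18 FPKM, below every control. The log2 change of -1.33 ± 0.43 (SE; limma adjusted p = 0.0436) was lost when any 1 of the 5 Irs1 KO livers or either sgGFP liver that stands apart was left out, and was -0.83 without both sgGFP livers (adjusted p = 0.289). Mmp8 and Mmp9, the collagenase and gelatinase best known from neutrophils, averaged 0.344 and 0.434 FPKM and were not tested.

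Mmp7, or matrilysin, a small protease known from epithelia including injured bile ducts, lies on chromosome 9 at 7692090-7699585 and varied widely between livers. It was at 25.8, 3.79, 144 and 3.89 FPKM in sgGFP and 16.3 and 2.98 in sgLacZ livers. The Irs1 KO livers had 0, 0, 0.685, 0.354 and 0 FPKM, all below the lowest control. Its log2 change was -3.53 ± 0.87 (SE; limma adjusted p = 0.00847). It was -2.43 without both sgGFP livers (adjusted p = 0.0921) and without all 4 (adjusted p = 0.0526), so the call was lost both ways. Srebf1 KO livers had 0.695, 0, 4.78, 0 and 0.340 FPKM (log2 change -3.02, adjusted p = 0.12). Bcl6, Smyd2 and Tbx3 KO livers reached 14.1, 24.4 and 11.7 FPKM and overlapped the controls. The summed level of 10 bile duct cell markers was 343 and 489 FPKM in sgGFP replicates 1 and 3, 165 to 174 in the other 4 controls and 120 to 175 in Irs1 KO livers, with 0 of 9 tested genes called. Their part in the Mmp7 values was not tested.

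Mmp13 and Mmp7 sit at opposite ends of a cluster of 9 members on chromosome 9, from 7272514 to 7699585, a span of 427 kb. Of these 9, 4 were at 0 in every liver. In the RefSeq promoter table for GRCm38.p6, which matched 36 of the 55 members with 38 windows of 250 bases before to 50 after the start, the AP-1 motif TGANTCA, read on both strands, was found in 7 member windows. All 7 were of genes in this cluster (Mmp13, Mmp1b, Mmp3, Mmp1a, Mmp10, Mmp20 and Mmp7), and 7.81% of 32851 windows of that length held it. The letters TATAAA were in 11 of the 38 and in 13.6% of all windows. The GC box GGGCGG was in 23 of the 38 and in 35.7% of all. The upstream bases below are shown because 2 of these genes, Mmp7 and Mmp13, were lower in Irs1 KO livers and 2 with the same motifs, Mmp10 and Mmp1a, were never detected. Of these, Mmp1a is annotated as a polymorphic pseudogene. Capitals mark AP-1 and TATAAA matches. Each line gives 110 bases up to the base before the start, plus strand, 5′ to 3′.
Mmp7, chr9:7691980-7692089: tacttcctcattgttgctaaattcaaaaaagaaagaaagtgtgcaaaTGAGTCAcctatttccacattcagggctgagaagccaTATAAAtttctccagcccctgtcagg
Mmp13, chr9:7272404-7272513: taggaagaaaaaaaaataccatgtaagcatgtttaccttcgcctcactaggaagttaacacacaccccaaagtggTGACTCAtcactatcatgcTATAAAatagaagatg
Mmp10, chr9:7502232-7502341: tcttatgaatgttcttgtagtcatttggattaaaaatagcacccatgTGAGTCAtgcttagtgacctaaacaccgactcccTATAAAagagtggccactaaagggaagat
Mmp1a, chr9:7464031-7464140: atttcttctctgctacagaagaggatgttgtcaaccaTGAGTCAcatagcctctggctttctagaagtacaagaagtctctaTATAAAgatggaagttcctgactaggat

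In all 4 lines the AP-1 letters lie upstream of TATAAA, with Mmp7 and Mmp10 holding them at the same distance, bases -63 to -57 from the start. The letters were therefore present both in genes with signal and in genes listed at 0. Mmp14, the Mmp gene with the highest mean, is shown for contrast. It had no match to AP-1 or TATAAA in its window and 2 GC boxes, in capitals below.
Mmp14, chr14:54431488-54431597: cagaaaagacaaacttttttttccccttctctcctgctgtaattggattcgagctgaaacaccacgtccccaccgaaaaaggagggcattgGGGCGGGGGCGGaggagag

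Mmp14, or MT1-MMP, cuts fibrillar collagen at the cell surface and activates pro-Mmp2, and lies on chromosome 14 at 54431612-54445364. Controls had 204, 99.8, 230 and 70.9 FPKM in sgGFP and 82.3 and 98.0 in sgLacZ livers. The 7 Tbx3 KO livers ranged from 49.7 to 80.4 FPKM with a median of 69.1; 5 of the 6 controls lay above all 7, and sgGFP replicate 4 lay within their range. Its log2 change was -0.86 ± 0.23 (SE; limma adjusted p = 0.0335). It was -0.43 without both sgGFP livers (adjusted p = 0.35) and -0.46 without all 4 (adjusted p = 0.149), and the call was also lost without sgGFP replicate 1, sgGFP replicate 3, or Tbx3 KO replicate 2, 3, 5 or 6. Changes of a like size in Srebf1 KO (-0.89, adjusted p = 0.0989) and Smyd2 KO livers (-0.87, adjusted p = 0.287) did not pass.

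Bcl6 KO livers did not share that direction: they had 119, 127, 141, 140 and 99.4 FPKM of Mmp14, a log2 change of 0.07 from control (adjusted p = 0.928). The size of a difference between knockout groups does not depend on the controls, although the shared fit takes part of its variance from them. Mmp14 was higher in Bcl6 KO than in Srebf1 KO livers by 0.97 ± 0.26 (SE; limma adjusted p = 0.0138) and than in Tbx3 KO livers by 0.94 ± 0.24 (adjusted p = 0.0092). Both held when any 1 liver of the groups compared was left out. It was higher than in Smyd2 KO livers by 0.95 ± 0.25 (adjusted p = 0.0151), which among the livers of those groups was lost only without Smyd2 KO replicate 1 (0.051). Without the 4 livers these differences were 0.97, 0.97 and 1.11, the adjusted p being at most 0.000287. In those contrasts 8.76%, 9.31% and 5.83% of all symbols passed, and 3 members of 41 (Adamts6, Mmp14 and Mmp27), 2 (Adamts7 and Mmp14) and 1 (Mmp14), so the number of members called was not above the background in any of them.

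Mmp24, a membrane-type enzyme best known from neurons, was lower in Irs1 KO livers, at 1.45 ± 0.59 against 3.11 ± 1.22 FPKM (SD, n = 5 and 6). One FPKM of it was worth about 11.2 reads, and the groups overlapped. The log2 change of -0.73 ± 0.21 (SE; limma adjusted p = 0.0235) was lost without sgLacZ replicate 2, sgGFP replicate 1, or Irs1 KO replicate 1 or 2. It was -0.68 without both sgGFP livers (adjusted p = 0.0731) and without all 4 (adjusted p = 0.0632). Mmp23 had the third smallest p in Bcl6 KO livers, at 23.4, 3.87, 6.48, 20.9 and 31.1 FPKM, with a control range of 21.1 to 37.4 (log2 change -1.09, adjusted p = 0.111). Of the 7 membrane-anchored enzymes 5 were tested, and no other was called. Mmp19, abundant and even at 54.9 to 98.6 FPKM over all livers, was not called (log2 changes of 0.06 to 0.29), though it came out higher in Irs1 KO livers when libraries were scaled to equal medians.

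Among ADAMTS enzymes, Adamts1 and Adamts12 were lower in Irs1 KO livers. Adamts1, which cuts versican and aggrecan, lies on chromosome 16 at 85793827-85803113, minus strand. It had 11.9, 15.4, 22.1 and 20.6 FPKM in sgGFP, 12.4 and 18.4 in sgLacZ, and 6.63, 8.12, 8.61, 9.06 and 10.6 FPKM in Irs1 KO livers. The groups did not overlap, and the sgGFP livers that stand apart were the lowest (replicate 1) and the highest (replicate 3) of the 6 controls. Its log2 change was -0.87 ± 0.24 (SE; limma adjusted p = 0.0192) and kept its size without both (-0.87, adjusted p = 0.0511) and without all 4 (adjusted p = 0.0158). The call was lost without Irs1 KO replicate 1 or sgGFP replicate 3.

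Adamts12, which degrades cartilage oligomeric matrix protein, lies on chromosome 15 at 11064790-11349231. Controls had 9.004, 2.52, 4.07 and 3.22 FPKM in sgGFP and 3.38 and 2.30 in sgLacZ livers, and Irs1 KO livers 0.611, 0.973, 1.82, 1.64 and 0.829, with no overlap. Its log2 change was -1.15 ± 0.33 (SE; limma adjusted p = 0.0227), and -0.85 without both sgGFP livers (adjusted p = 0.152) and without all 4 (adjusted p = 0.0463). It was lost without Irs1 KO replicate 1 or sgGFP replicate 1. In Bcl6 KO livers the mean was 1.55 FPKM (log2 change -0.94, adjusted p = 0.0909).

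The remaining ADAMTS hyalectanases (Adamts4, Adamts5, Adamts8, Adamts9 and Adamts15 among those tested), the procollagen N-proteinases Adamts2, Adamts3 and Adamts14, which trim the amino ends of procollagen, and the 5 ADAMTS-like proteins had no call against controls. Of the 5 ADAMTS-like proteins, which bind fibrillin and other microfibril proteins, 4 or 5 were below 0 in each comparison. Adamts10, the most abundant member, was at 145 to 510 FPKM in controls and 135 to 247 in Irs1 KO livers. In Smyd2 KO livers the smallest p values after Mmp14 were those of Adamts16, at 3.20 ± 3.33 against 9.37 ± 10.9 FPKM (SD, n = 6 and 6; limma adjusted p = 0.736), and Mmp11, at 1.13 ± 0.52 against 3.33 ± 2.73 (adjusted p = 0.781). For both, the control SD was larger than the difference of the means.

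Members with every knockout liver below every control liver were counted as well. In Irs1 KO livers that held for 7 members (Adamts1, Adamts12, Loxl2, Mmp13, Mmp2, Mmp7 and Timp2; 17.1% against 5.24% of all symbols), in Bcl6 KO livers for Loxl2 and Adamtsl4 (4.88% against 1.92%) and in Srebf1 KO livers for Adamts12 and Mmp27 (4.88% against 1.16%). For Tbx3 and Smyd2 KO livers it held for none, where 0.446% and 0.161% of all symbols did. Adamtsl4 and Mmp27 are named after their values were seen.

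A test of differences among the 5 knockout groups, in which the controls enter only the variance of the shared fit, called 4 of 41 members (9.76%), where 14.5% of all tested symbols were called. They were Timp3 (limma F test, adjusted p = 0.0192), Mmp14 (0.0214), Adamts7 (0.0325) and Adamts6 (0.0373). Timp3 was higher in Bcl6 KO than in Irs1 KO livers by 0.98 ± 0.26 (SE; limma adjusted p = 0.0116, with 11.3% of all symbols called in that contrast). Its Bcl6 KO values of 88.6, 76.4, 118, 102 and 105 FPKM lay above all 5 Irs1 KO values, and the call held when any 1 liver of the groups compared was left out. Timp3 was lower in Irs1 KO than in Smyd2 KO livers by 0.90 on the log2 scale (adjusted p = 0.0363), which was lost without any 1 of 6 livers, Irs1 KO replicates 1 and 3 and Smyd2 KO replicates 1, 2, 5 and 6, with an adjusted p of at most 0.109.

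Adamts6, a relative of Adamts10, stood at 44.6, 36.6, 26.3, 19.4 and 21.8 FPKM in Bcl6 KO livers. Irs1 KO livers had 14.8, 12.4, 4.62, 12.4 and 13.9, and those labelled Srebf1 KO had 12.6, 14.7, 7.44, 10.8 and 15.4, all below the lowest Bcl6 KO liver. The differences were 1.30 ± 0.37 (SE; limma adjusted p = 0.0162) and 1.19 ± 0.37 (adjusted p = 0.0348). The first was lost without Bcl6 KO replicate 1 or Irs1 KO replicate 3, the second without any 1 of 6 livers (Bcl6 KO replicates 1, 2 and 3, and Srebf1 KO replicates 1, 3 and 4). Both held without the 4 livers (adjusted p = 0.0118 and 0.0261). Against controls, at 19.5 ± 6.502 FPKM (SD, n = 6), no group passed.

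Adamts7, which like Adamts12 degrades cartilage oligomeric matrix protein, lies on chromosome 9 at 90163069-90208071, outside the cluster. Its Tbx3 KO values ran from 29.9 to 90.6 FPKM with a median of 67.8, and its Bcl6 KO values were 28.6, 39.2, 36.9, 29.6 and 28.3. All but 1 Tbx3 KO liver lay above all Bcl6 KO livers. Bcl6 KO was lower by 0.89 ± 0.27 on the log2 scale (SE; limma adjusted p = 0.032), a call lost without any 1 of 7 livers (Bcl6 KO replicates 1, 4 and 5, and Tbx3 KO replicates 1, 3, 4 and 5). Unlike most members, Adamts7 had its highest values outside the 4 livers that stand apart, and its Tbx3 KO change from control was 0.68 (adjusted p = 0.155).

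**Figure D5:**
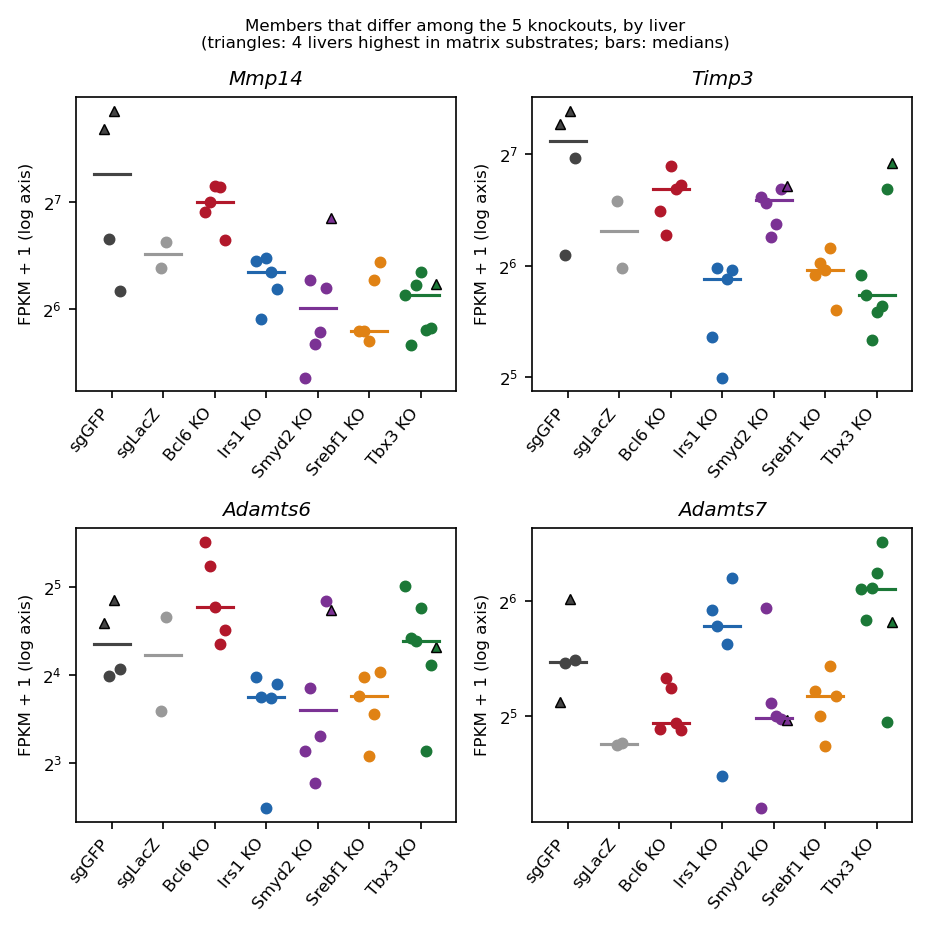
FPKM + 1 on a log axis for the 4 members called by the F test among the 5 knockout groups, 1 symbol per liver; bars are medians, and triangles are the 4 livers highest in matrix substrates. Bcl6 KO livers are the highest knockout group by median for Mmp14, Timp3 and Adamts6, and Tbx3 KO livers for Adamts7.

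Many genes of the matrix that these enzymes act on were lower in Irs1 KO livers, but the summed level of the list was higher. Of the 30 matrix substrates, 20 were lower in Irs1 KO livers and 1, the hepatocyte-made fibronectin gene Fn1, was higher. The list summed to between 21640 and 25640 FPKM in Irs1 KO livers, and to between 17000 and 20850 in controls. Fn1 made up most of these sums. Its mean rose from 14880 FPKM in controls to 21050 in Irs1 KO livers (adjusted p of 0.000285 by limma). The rise still passed without both sgGFP livers (0.00218) and without all 4 (0.000558). Col3a1 was at 16.7 ± 6.25 against 96.4 ± 53.2 FPKM (SD, n = 5 and 6; limma adjusted p = 0.000662) and Col1a2 at 8.51 ± 3.08 against 48.2 ± 28.1 (adjusted p = 0.00124). Without sgGFP replicate 3 the count of lower substrates was 13, without both sgGFP livers 8, and without all 4 livers 14. In these settings 5.13%, 3.35% and 5.63% of all symbols were lower. With all livers in, 7.61% were lower and 3.24% higher. No list was tested as a set. In the other groups at most 1 substrate fell: Col12a1 in Bcl6 KO (3.19% of all symbols lower) and Col1a2 in Tbx3 KO livers (1.37%). Leaving out single livers gave 0 to 3 in the first and 0 to 20 in the second, with 20 reached without Tbx3 KO replicate 7. Neither gene passed without both sgGFP livers (adjusted p = 0.102 and 0.326), and without all 4 livers 2 substrates fell in Bcl6 KO and 9 in Tbx3 KO livers. Col8a1 was higher in Bcl6 KO livers, at 11.3 ± 3.65 against 3.13 ± 2.59 FPKM (SD, n = 5 and 6; limma adjusted p = 0.00169), and passed without both sgGFP livers and without all 4.

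Of 14 collagen maturation enzymes tested, 3 were lower in Irs1 KO livers, where 7.61% of all symbols were lower. They were the collagen chaperone Serpinh1 (72.9 ± 12.8 against 189 ± 95.3 FPKM), Pcolce, which speeds removal of the procollagen carboxyl end, and the hydroxylysine galactosyltransferase Colgalt1. None of the 3 passed without both sgGFP livers or without all 4, and leaving out single livers gave 0 to 4, with changes of more than 1.5 times without sgGFP replicate 1 or 3 or Irs1 KO replicate 1 or 4. Of 24 other pericellular proteases and inhibitors, 8 fell in Irs1 KO livers, among them the plasminogen activator Plat (0.560 ± 0.227 against 4.13 ± 2.03 FPKM; limma adjusted p = 0.00448) and the serine protease Htra1 (adjusted p = 0.0178). In the same list 2 rose, the plasminogen gene Plg (2025 ± 200.2 against 1099 ± 142 FPKM; adjusted p = 1.02e-05) and its inhibitor's gene Serpinf2 (adjusted p = 6.08e-05), both made by hepatocytes. Without both sgGFP livers 2 fell and 2 rose, with Htra1 no longer past the threshold (adjusted p = 0.156), and without all 4 livers 6 fell and 2 rose. Plg was also higher in Bcl6, Srebf1 and Tbx3 KO livers (adjusted p = 4.78e-05, 0.044 and 0.00722), and Serpinf2 in Bcl6 and Tbx3 KO livers; in Srebf1 KO livers the list had no call left without any 1 of 9 livers, and in Tbx3 KO livers the count fell to 1 without any 1 of 9. The Plg call was lost in Srebf1 KO livers without both sgGFP livers (adjusted p = 0.233) and kept in the other 3 groups. Of 21 genes of the TGF-beta pathway, a main inducer of matrix genes, 4 fell in Irs1 KO livers, including Tgfb2 (adjusted p = 0.00272), the receptor Tgfbr2 (0.0114) and the latency protein Ltbp2 (0.0034). Without both sgGFP livers 1 fell and 1 rose, and without all 4 livers 4 fell and 1 rose. Tgfbr2 was lower in Tbx3 KO livers too (limma adjusted p = 0.033). That call was lost without both sgGFP livers (adjusted p = 0.124) and kept without all 4 (adjusted p = 0.0147).

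Markers of liver cell types were counted beside these results, first in Irs1 KO livers against controls. In that comparison 7.61% of all symbols were lower and 3.24% higher. Of 15 macrophage markers 5 were lower, including Gpnmb (0.791 ± 0.613 against 23.1 ± 18.1 FPKM), Ccr2 and Csf1r, and 1, Cd163, was higher. The summed level was 624 to 1040 FPKM against 815 to 1488 in controls. Ly6c2 was at 0 in all Irs1 KO livers, and in both sgLacZ controls as well. Of 15 stellate cell markers 3 were lower, among them Pdgfrb and Lrat, and 1 higher, Ecm1, with summed levels of 927 to 1215 against 1008 to 1160 FPKM; the count of lower stellate markers was 1 to 4 with single livers left out, and moved by over 1.5 times without sgGFP replicate 1, 2 or 3 or Irs1 KO replicate 3 or 5. Neutrophil markers had summed levels of 29.98 to 60.4 against 70.8 to 249 FPKM, with 0 of 7 tested genes called. Retnlg and Ly6g were at 0 in all Irs1 KO livers, but also in all Srebf1 KO livers. Among the controls, Ly6g was at 0 in all sgGFP livers and Retnlg in both sgLacZ livers. Of 12 endothelial markers 2 were lower (Pecam1 and Lyve1), with summed levels of 634 to 951 against 775 to 1020 FPKM. Of 10 hepatocyte markers 6 were higher, a count that stayed at 6 without both sgGFP livers and without all 4. Without both sgGFP livers 2 macrophage, 0 stellate and 1 endothelial marker were lower, and without all 4 livers 4, 1 and 1. Of all symbols, 3.35% and 5.63% were lower in those settings. In Bcl6 KO livers 5 hepatocyte markers, with Alb at 131500 ± 26540 against 45810 ± 6557 FPKM (limma adjusted p = 1.84e-09), and 5 endothelial markers were higher, and the bile duct gene Sox9 was lower. Of all symbols, 2.95% were higher there and 3.19% lower. The hepatocyte count was 3 without Bcl6 KO replicate 1 or 4 or sgGFP replicate 2, and the endothelial count was 3 without Bcl6 KO replicate 1, 2, 3 or 4, sgGFP replicate 2 or sgLacZ replicate 2. Without both sgGFP livers 5 hepatocyte and 2 endothelial markers were higher, and without all 4 livers 5 and 3. In that last setting 1 hepatocyte marker was called lower. Sox9 did not pass in either setting (adjusted p = 0.22 and 0.0918). Lrat was also lower in Bcl6 and Tbx3 KO livers (limma adjusted p = 0.0196 and 0.0387). Pdgfrb was lower in Tbx3 KO livers (0.0322), and Ecm1 was higher in Bcl6 KO livers (0.0374). None of these passed without both sgGFP livers (adjusted p from 0.115 to 0.356). Without all 4 livers only the Tbx3 KO calls of Lrat and Pdgfrb passed. In Tbx3 KO livers, where 1.17% of all symbols were higher, 3 hepatocyte markers were higher, also without both sgGFP livers, and 4 without all 4. The part of these cell types in the members' values was not tested.

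The control guides were also set against each other. Between sgGFP and sgLacZ livers no member passed limma's test and 1 had an unadjusted p below 0.05, while 2 of all tested symbols passed. Of the 41 members 33 were higher in sgGFP livers, which hold both control livers that stand apart.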

How the data were processed

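The FPKM values are as the authors deposited them, 1 column per liver, each matched to a sample by its label; 0 columns had no sample. Per the submitters' processing notes, featureCounts 1.6.4 was used, and builds mm10 and GRCh38 are named; the aligner, annotation and strand setting: not given in the sources used here. Without a known strand setting, overlapping antisense reads cannot be told apart.

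From those values, log2(FPKM + 1) was fitted with limma 3.58.1 in R 4.3.3 (5 knockout levels and 1 control level in 1 fit, intensity trend, two-sided) for symbols with an FPKM of at least 1 in at least 5 libraries. P-values were adjusted by Benjamini-Hochberg over all tested symbols, with a threshold of 0.05; the F test and 10 contrasts between knockouts used the same fit. Fold changes on this scale understate changes of low genes. The procedure was tested on simulated data. Named members are Loxl2, Timp1, every member past the threshold, the 3 smallest p values where fewer than 3 passed, the 5 highest means, and those at 0 throughout; of other lists, up to 3 genes past the threshold per comparison by p. Any other gene named was chosen after its values were seen. Members and lists (10, by role or cell type) were chosen with earlier results of these data known. Positions are from GENCODE M21, GRCm38. Replicate numbers were checked as pairs, and alternatives covered the pseudocount, filter, scaling, control group, variance model and each liver left out. 1 gene that matches the symbol patterns is not reported here.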

Additional observations from a re-analysis of the deposited data

Results flagged for a closer look

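The 4 members that differ among the knockout groups are Adamts6 (limma F test, adjusted p = 0.0373), Adamts7 (0.0325), Mmp14 (0.0214) and Timp3 (0.0192), each by a test of the difference itself. Timp3 passed under every alternative tried, Mmp14 failed without Bcl6 KO replicate 2, 3 or 4, and Adamts6 and Adamts7 each failed without any 1 of 6 livers.

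Single livers lay far from the rest of their group in 3 of 90 cases tested over 15 members, where chance gives about 1 in 20. Adamts6 was at 4.62 FPKM in Irs1 KO replicate 3, against 12.4 to 14.8 in the other Irs1 KO livers. Loxl2 was at 24.95 FPKM in Irs1 KO replicate 5, against 32.7 to 36.0. For Adamts12 the library labelled Srebf1 KO replicate 1 had 0.677 FPKM and the other 4 had 1.62 to 2.10; this is the library whose Srebf1 level, the highest of its group, lay within the control range.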

How the results depend on the processing

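In Irs1 KO livers 8 of 41 members were lower. The count was 4 after quantile normalization (Loxl2, Mmp13, Mmp7 and Timp3), 5 without the 4 livers that stand apart, 0 without both sgGFP livers among them, 4 to 12 with single livers left out, and 12 with sgGFP livers alone as control. Scaling moved the median of all symbols in that comparison from -0.12 to 0.08 (equal medians) and 0.02 (quantile). The Bcl6 KO count of 1 became 0 without both sgGFP livers and ranged from 0 to 2 with single livers left out. The Srebf1 KO count of 0 became 1 with sgGFP livers alone as control and ranged from 0 to 1. The Tbx3 KO count of 1 became 2 with sgGFP livers alone, 0 in a fit of the 2 groups alone, 0 without both sgGFP livers and 0 without the 4, and ranged from 0 to 12, the highest without Tbx3 KO replicate 7. The Smyd2 KO count was 0 under every alternative run. The F test called 4 members, 7 without the 4 livers, and from 2 (without Bcl6 KO replicate 1, 2, 3 or 4) to 8 (without Tbx3 KO replicate 7). Among the named log2 changes only Timp1 in Srebf1 KO livers reversed, from -0.23 to 0.16 without Srebf1 KO replicate 3 or 5 and 0.31 without sgGFP replicate 3 (single livers left out gave -0.90 to 0.31), and to 0.39 without both sgGFP livers or the 4. Leaving livers out changes both the control values and the spread of the shared fit, and the cause of these shifts was not tested. Where a count here has no share of all symbols beside it, a shift of the set cannot be told from one of all symbols.

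Replicate numbers did not pair livers: over 83 pairs with the same number, deviations correlated from -0.255 to 0.162 (3 above 0.1), and 7 of 34 livers correlated best with their own number. With the replicate block, 18 members were called in Tbx3 KO livers (10% of all symbols), 12 in Irs1 KO (12.9%), 1 in Bcl6 KO (6.09%), 0 in Srebf1 (0.689%) and Smyd2 KO livers (0%) and 6 by the F test (16.4%); Tbx3 KO replicate 7 is alone in its number and is fitted exactly there.

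Depth limits the low members: 1 FPKM was about 4.69 reads for Mmp3, 6.32 for Mmp8 and 8.27 for Mmp9, so values under 1 rest on a few reads, and a listed 0 does not show absence.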
